A study of Rattus norvegicus with 6 samples.

Results

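Motile cilia are the beating projections of multiciliated cells, and the genes that build their axoneme were followed here in bulk RNA sequencing of rat brain tissue. They were found by gene symbol, as the rows named Dnah, Dnai, Dnaaf, Cfap, Rsph, Tekt or Spag followed by a digit, with Foxj1, Ccdc39, Ccdc40, Ccdc153, Tmem212, Hydin, Mcidas, Rfx2, Rfx3 and Drc1 added by name. This gave 76 of the 19382 genes in the table. Membership goes by symbol and no level enters it for a single gene, but the family as a whole was selected on its fold changes of HI over control in these same libraries. Counts, fold changes and adjusted p-values of members therefore describe these libraries and are not independent evidence.

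The study compared 3 libraries of a hypoxia-ischemia (HI) group with 3 libraries of a control group. HI animals were SD rats that underwent 2.5 h of ischemia and hypoxia when 7 days old, which models injury of the newborn brain. For the controls the labels give only a control treatment. Brain region, time between injury and sampling, sex, control age and whether each library is a separate animal are not stated by the labels. The p-values therefore rest on the spread among 3 libraries a group, some of which may be technical.

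In the brain, motile cilia stand on the ependymal cells that line the ventricles and on the epithelium of the choroid plexus, and those of the ependyma move cerebrospinal fluid. Their axoneme is a ring of doublet microtubules around a central pair. Dynein arms bend it, radial spokes relay signals from the central pair, and nexin links hold the doublets together. The coregulator Mcidas starts the multiciliation programme, and the transcription factors Foxj1, Rfx2 and Rfx3 switch on the structural genes.

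RFX factors bind a DNA element known as the X-box, and GTTGCC is the core of its arms. This core was searched for on either strand of RefSeq promoter windows of build GRCr8, from 250 bases before to 50 bases after the start of a gene's listed transcript. For 26 of the 62 member windows that start is also the outermost start in RefSeq's gene table, and for the others it is a different one. Windows were listed for 62 members, and 25 of them (40.3%) held the core at least once, against 12.2% of the 27457 windows of all genes. The forkhead core GTAAACA, which resembles sites bound by Foxj1 and other forkhead factors, was in 2 of the 62 (3.23%), against 3.76% of all windows, and neither core lies within the other. Of the 29 matches to the RFX core, 21 began no more than 70 bases before the transcript start or after it. Positions were not counted over all windows, so whether this is particular to members is not known. GTTGCC followed within 3 bases by GCAAC, which is part of the core's reverse complement GGCAAC, is a pattern chosen after the first matches were seen. It occurred in 4 of the 62 (6.45%) and in 0.339% of all windows. Those 4 were Hydin, Cfap44, Dnai2 and Tekt2. All 3 regulators with a window, Rfx2, Rfx3 and Mcidas, held the RFX core, as did 5 of 9 central apparatus genes and 6 of 10 genes of doublet proteins, while 0 of 6 radial spoke genes held it. A match is a run of letters and not a binding site. The following stretches, each turned so that the core reads GTTGCC in capitals with 12 bases on either side, are shown because they carry the core in genes of the central pair, the dynein arms, the tethers and the doublet interior.
Hydin, chr19:55146448-55146477, minus strand: ttgttaccatctGTTGCCacagcaaccgct
Cfap44, chr11:69789897-69789926, plus strand: ccgtttactgcgGTTGCCacagcaacgcca
Dnai2, chr10:100258955-100258984, minus strand: cggagtttaccgGTTGCCtagcaaccctgg
Tekt2, chr5:143907736-143907765, plus strand: tttgtggctctgGTTGCCtagcaaccgccc
Tekt1, chr10:57479143-57479172, minus strand: acgttgcgtccgGTTGCCatagtgaccgca
Spag8, chr5:62699652-62699681, plus strand: tccgcctaccggGTTGCCatagagacggca
Spag6, chr11:97677764-97677793, plus strand: cggttgcggtcaGTTGCCctggagacgtat
Drc1, chr6:31779258-31779287, plus strand: taggaacaagccGTTGCCaagggaaagcag

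The whole window of Rfx2, which was among the members that rose in HI and is itself a factor of the X-box, is shown because its match lies farther from the start than most. It spans chr9:1758097-1758396 on the minus strand, with the RFX core in capitals.
Rfx2: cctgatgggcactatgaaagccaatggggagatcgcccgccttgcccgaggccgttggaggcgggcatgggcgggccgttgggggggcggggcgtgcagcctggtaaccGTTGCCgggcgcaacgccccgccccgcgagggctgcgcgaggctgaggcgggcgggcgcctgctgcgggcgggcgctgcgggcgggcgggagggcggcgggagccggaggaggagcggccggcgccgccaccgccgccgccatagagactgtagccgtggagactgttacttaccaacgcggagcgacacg

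Estimated reads per library came to between 14324303 and 14927469 in HI and between 13922663 and 14692505 in the controls. Levels are CPM, reads scaled to a common library size with TMM factors. A count of 0 allows up to 3 reads, which equal 0.182 to 0.200 CPM in HI and 0.221 to 0.227 CPM in the controls. Defining markers of neurons, astrocytes, oligodendrocyte lineage and microglia were all found, which matches the label of brain tissue. Libraries differed strongly in choroid plexus RNA. The summed level of 18 choroid plexus markers was 249, 8959 and 16597 CPM in HI 1, 2 and 3, against 43.7, 2481 and 47.0 CPM in controls 1, 2 and 3, and Ttr, the transthyretin carrier made by that epithelium, gave most of it in HI 1, HI 2, HI 3 and control 2, but only 3.78 and 0.524 CPM in controls 1 and 3. Reads of the Y-linked genes Eif2s3y, Ddx3y, Uty and Kdm5d summed to 1356 or more in HI 2, HI 3 and control 3, and to 3 or fewer in the other libraries. Over 14959 genes tested with the quasi-likelihood F test of edgeR, 1021 were higher and 1053 lower in HI at an adjusted p below 0.05, so that 49.2% of the calls were higher, against 64.3% with upper-quartile scaling and 74.7% with total counts.

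Most motile cilia genes had a higher mean level in HI. Of 76 members, 71 had enough reads to be tested, and 14 of these (19.7%) rose by edgeR at an adjusted p below 0.05, beside 6.83% of all genes tested. By the same rule 0 members fell, beside 7.04% of all genes. By edgeR at an unadjusted p below 0.05, 2 members were lower. Of all 14959 genes tested, 5460 were below that level, 2863 of them higher in HI and the rest lower. In 33 members every HI library lay above every control (46.5%, against 21.5% of all genes tested), and in 1 every HI library lay below (20.8% of all genes). The median log2 fold change, HI over control, was 1.26 over the 71 and 0.04 over all genes tested, and 65 members had a positive one (53.3% of all genes). Of the 71, Cfap221 had fewer than 10 reads in every control and passed the filter through its HI reads. Fewer than 10 reads in 2 or more controls were found for 5 of the 71, which are Cfap221, Cfap73, Spag4, Tekt3 and Tekt5. Cfap157 and Tekt4 had 3 reads in control 3. All of these needed HI reads to pass the filter. In bulk tissue a change in the number of ciliated cells cannot be told apart from a change in RNA per cell. The number of members that rose depended on single libraries. By edgeR it was 0 without HI 2, without control 1 or without control 2, where 0 of all genes were called higher as well. It was also 0 without control 3, where 3.96% of all genes were called higher, 2 without HI 3, beside 1.62% of all genes, and 20 of 71 without HI 1, beside 13.7% of all genes. At an unadjusted p below 0.05, 45 of 71 members were higher (63.4%, beside 19.1% of all genes). Without HI 2, control 1, control 2 or control 3 in turn this was 53, 48, 26 and 26 of 72, beside 14.55%, 13.1%, 13.4% and 16.6% of all genes. DESeq2 called 39 members higher and 0 lower, beside 13.9% and 14.2% of all genes, and limma-voom called 2 higher and 0 lower, beside 3.69% and 5.47% of all genes.

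**Figure D1:**
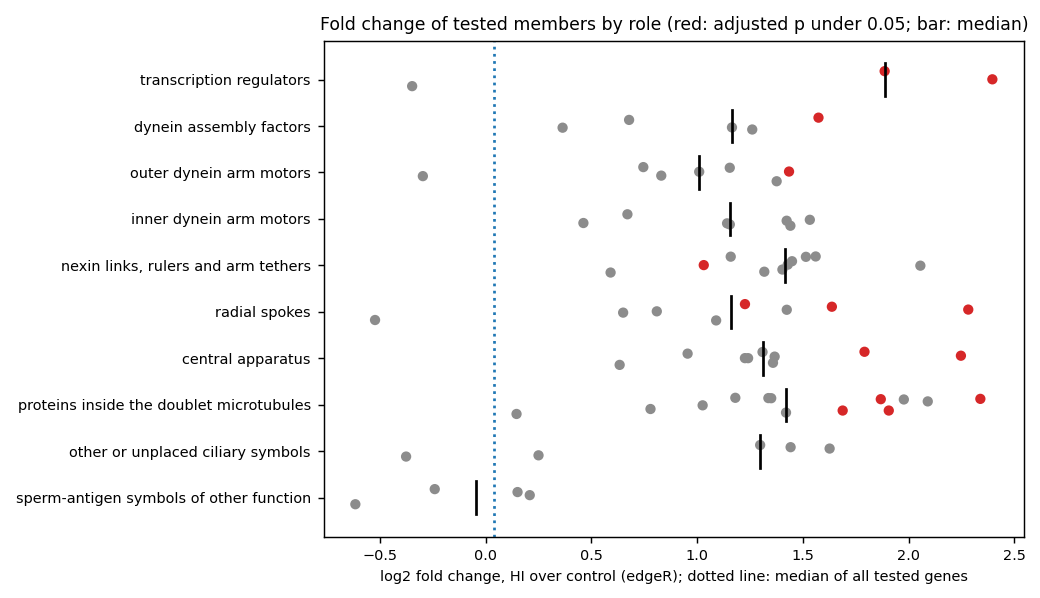
Log2 fold change of HI over control for the 71 tested members (horizontal axis), in rows by role in the cilium, with red points for an edgeR adjusted p below 0.05, a black bar at each role's median and a dotted line at the median of all genes tested (0.04). Structural roles have medians between 1.01 and 1.42, right of the dotted line, and the sperm-antigen symbols of other function centre at -0.05.

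Among the regulators, Foxj1, the forkhead factor required for motile cilia, had 33.7, 54.3 and 109 CPM in HI 1, 2 and 3, against 14.5, 15.6 and 7.41 CPM in controls 1, 2 and 3. The groups did not overlap, HI 3 was the highest library and control 3 the lowest. It rose by a log2 fold change of 2.40 ± 0.49 (SE, edgeR adjusted p = 0.0325), the largest of any tested member. Rfx2 had 11.8, 13.2 and 25.8 CPM in HI, against 4.99, 5.002 and 3.74 CPM in the controls, a log2 fold change of 1.89 ± 0.35 (edgeR adjusted p = 0.0270) with HI 3 again highest. Rfx3, a related factor with a wider range of tissues, did not follow them. It had 73.0, 72.4 and 93.2 CPM in HI, against 91.3, 102 and 110.3 CPM in the controls, giving -0.35 ± 0.14 on the log2 scale without passing (edgeR adjusted p = 0.120), with groups that overlapped through HI 3 and control 1. Mcidas was close to the limit of detection, with 0, 1 and 6 reads in HI and 1, 2 and 2 reads in the controls, so no difference was detectable at this depth.

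**Figure D2:**
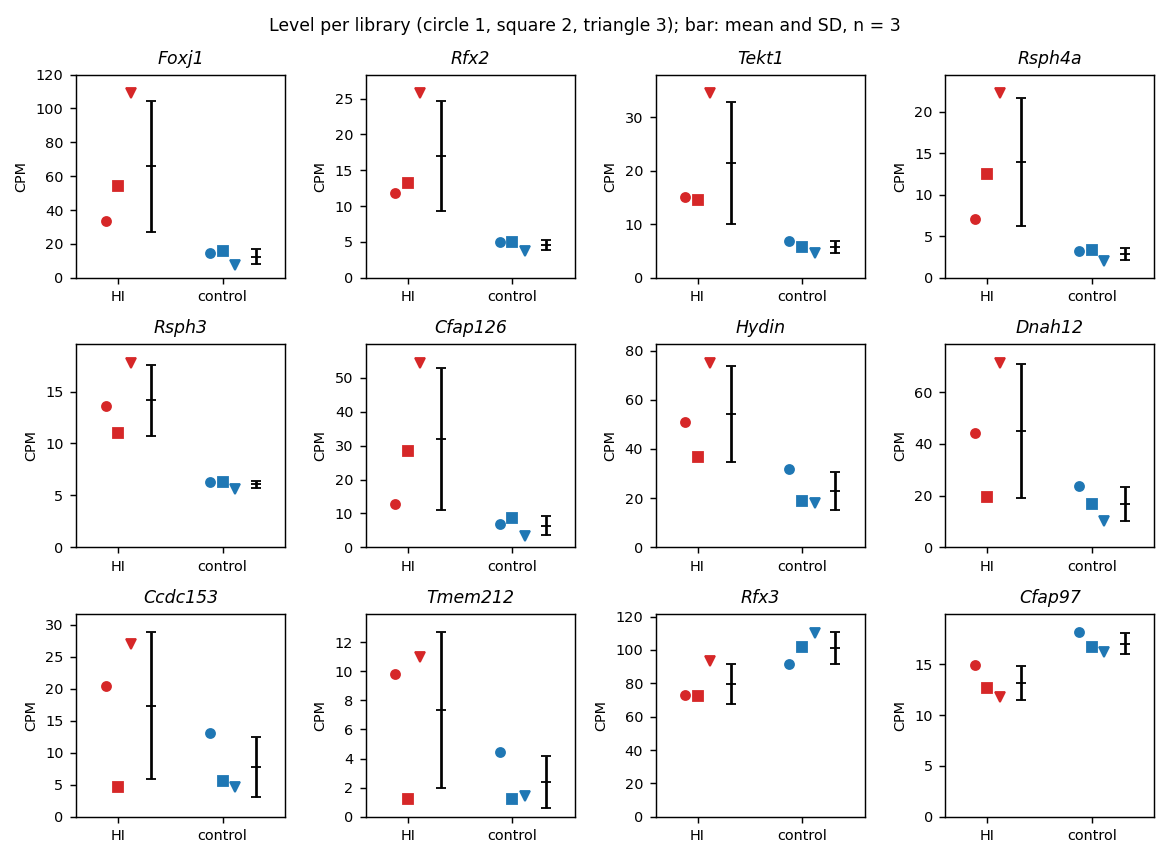
CPM of 12 members in each library (red HI, left, and blue control, right; circle, square and triangle are libraries 1, 2 and 3), with the mean and SD of 3 libraries as black bars; each vertical axis starts at 0. Foxj1, Rfx2, Tekt1, Rsph4a, Rsph3, Cfap126 and Hydin have every HI library above every control, whereas HI 2 lies among the controls for Dnah12 and just below the lowest of them for Ccdc153 and Tmem212, and Rfx3 and Cfap97 are lower on average in HI.

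Dynein motors are assembled in the cytoplasm before they enter the cilium, with the help of assembly factors. Of 5 such members 1 rose. Over all genes tested 6.83% rose by edgeR, and in 21.5% every HI library lay above every control. These shares belong beside the counts of this role and of those that follow. Spag1, a scaffold of that step, had 9.29, 12.2 and 24.1 CPM in HI, against 4.92, 5.22 and 5.16 CPM in the controls (2.98-fold, edgeR adjusted p = 0.0407), and the controls lay close together. Dnaaf3 had 13.4, 13.4 and 25.7 CPM in HI, against 9.53, 8.17 and 4.19 CPM in the controls. Dnaaf5 had 15.6, 18.2 and 27.8 CPM in HI, against 11.6, 14.3 and 12.6 CPM in the controls. Neither passed (edgeR adjusted p = 0.0744 and 0.0997), although in each the groups did not overlap. Dnaaf2, with shared reads, had a log2 fold change of 0.36 ± 0.22, the smallest of the 5, and overlapped, as did Dnaaf1, in which HI 2 at 3.72 CPM lay below control 1 at 4.54 CPM.

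Outer dynein arms set the beat frequency. Of 7 heavy and intermediate chains 1 rose, Dnah11, a heavy chain of the proximal cilium, with 15.2, 14.4 and 26.4 CPM in HI, against 9.08, 6.47 and 5.16 CPM in the controls (2.70-fold, edgeR adjusted p = 0.0383). Its gene span overlaps that of Cdca7l, so reads could be shared if strand was not used. The same holds for other members, which are named with the processing. Dnah9, the distal heavy chain, had 41.0, 24.5 and 51.5 CPM in HI, against 26.0, 12.9 and 19.2 CPM in the controls. Dnah5, the main outer heavy chain, had 20.9, 16.6 and 30.6 CPM in HI, against 16.6, 10.5 and 11.1 CPM in the controls. In both of these HI 2 lay among or beside the controls, and they did not pass (edgeR adjusted p = 0.0899 and 0.0920). Dnah8 and Dnah17, which do this work in sperm tails, departed from the rest. Dnah17 had a log2 fold change of -0.30 ± 0.31, and Dnah8 had 5.68, 9.05 and 1.51 CPM in HI, against 5.599, 2.21 and 1.87 CPM in the controls, with its lowest level in HI 3, the library that was highest for 60 of 71 members.

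Inner dynein arms shape the waveform. All 7 inner arm heavy chains had a positive log2 fold change, between 0.46 and 1.53, and 0 of 7 passed by edgeR, with 3 at an unadjusted p below 0.05, 3 called by DESeq2, 0 by limma-voom and 0 with separate groups. In each of the 7, HI 2 was the lowest HI library and did not clear the controls. Dnah12 had 44.3, 19.6 and 71.5 CPM in HI, against 23.5, 16.7 and 10.2 CPM in the controls. Dnah2 had 35.7, 18.1 and 40.0 CPM in HI, against 24.6, 14.3 and 20.0 CPM in the controls. Dnah1 had 31.9, 14.6 and 36.6 CPM in HI, against 20.4, 10.4 and 6.88 CPM in the controls. In these genes HI 1 and HI 3 stood above all controls, while HI 2 lay between the highest and the lowest control. Dnah6 had the largest fold change of the role, with 33.4, 12.7 and 31.7 CPM in HI, against 15.4, 4.63 and 6.88 CPM in the controls. Dnah10 had the smallest, with 21.1, 6.87 and 21.1 CPM in HI, against 18.5, 7.72 and 9.43 CPM in the controls, so that HI 2 was its lowest library of all 6.

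Nexin links, rulers and arm tethers set the spacing of the arms along the doublets. Of 10 members 1 rose, and 8 had separate groups. Cfap70, which is known to bind outer arms, had 16.9, 17.3 and 29.8 CPM in HI, against 11.2, 10.5 and 9.58 CPM in the controls (2.04-fold, edgeR adjusted p = 0.0458). Drc1, a core of the nexin link, had 31.2, 41.0 and 66.1 CPM in HI, against 20.8, 18.7 and 7.41 CPM in the controls. Cfap43, a tether of inner arms, had 36.3, 25.7 and 66.8 CPM in HI, against 22.02, 14.6 and 8.45 CPM in the controls. Drc1 and Cfap43 had separate groups but did not pass (edgeR adjusted p = 0.0597 and 0.0681), and control 3 was the lowest library in both. Ccdc39, which with Ccdc40 forms the ruler of the axonemal repeat, had a smaller log2 fold change of 0.59 ± 0.21, also with separate groups (edgeR adjusted p = 0.0931). Cfap100, a further protein of the inner arm tether, had 3.74, 7.32 and 18.2 CPM in HI, against 3.10, 2.94 and 0.973 CPM in the controls. Its log2 fold change of 2.06 ± 0.69 was among the larger ones, but the HI libraries were far apart and it did not pass (edgeR adjusted p = 0.0843).

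Radial spokes gave 3 rises among 8 members. Rsph4a, a protein of the spoke head, had 7.08, 12.5 and 22.3 CPM in HI, against 3.18, 3.38 and 2.02 CPM in the controls, a log2 fold change of 2.28 ± 0.46 (edgeR adjusted p = 0.0317). Some of its counts were fractional, so a part of its reads may be shared with another gene. Rsph3, a stalk protein, had 13.6, 11.04 and 17.8 CPM in HI, against 6.28, 6.25 and 5.61 CPM in the controls, a log2 fold change of 1.23 ± 0.22. This difference was moderate in size, and its adjusted p was the smallest of the family (edgeR adjusted p = 0.0267). Cfap206, at the spoke base, rose 3.11-fold (edgeR adjusted p = 0.0488). Rsph9, another head protein, had 25.8, 27.4 and 41.3 CPM in HI, against 18.3, 19.5 and 16.2 CPM in the controls, with separate groups and an edgeR adjusted p = 0.0505, just above the threshold. Rsph10b overlapped by a small margin, with 27.2 CPM in HI 1 and 27.7 CPM in control 2, and Cfap61, of the spoke base, with 10.3 CPM in HI 2 and 12.9 CPM in control 1. Rsph6a, a spoke protein of sperm, had 0.908 to 1.16 CPM in HI and 1.03 to 1.97 CPM in the controls, and its log2 fold change was -0.52 ± 0.36.

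The central apparatus gave 2 rises among 9 tested members, and all 9 had positive fold changes. Spag6 had 15.8, 13.1 and 32.9 CPM in HI, against 7.49, 5.89 and 4.49 CPM in the controls (3.46-fold, edgeR adjusted p = 0.0372). By gene number that row is the gene RefSeq now calls Spag6l, while the row named Spag6l had at most 5 reads in a library and is RefSeq's Spag6. Cfap221 rose 4.75-fold (edgeR adjusted p = 0.0471), with 23, 16 and 41 reads in HI and 5, 7 and 2 reads in the controls, so the size of that fold is uncertain. Hydin, a large protein of the central pair whose loss causes hydrocephalus in mice, had 50.8, 36.8 and 75.2 CPM in HI, against 32.01, 18.7 and 18.2 CPM in the controls. The groups did not overlap, but the log2 fold change of 1.24 ± 0.33 did not pass (edgeR adjusted p = 0.0535). Cfap69 had a log2 fold change of 0.63 ± 0.22 with separate groups, and Cfap65 had 1.36 ± 0.52 with HI 2 below control 1. Spag16 was not tested, with at most 5 reads in a library.

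Proteins that line the inside of the doublet microtubules gave 4 rises among 13 members. Cfap126, also called Flattop, had 12.9, 28.4 and 54.5 CPM in HI, against 6.96, 8.75 and 3.22 CPM in the controls (5.06-fold, edgeR adjusted p = 0.0480). Tekt1, a tektin filament protein, had 15.1, 14.5 and 34.6 CPM in HI, against 6.89, 5.66 and 4.56 CPM in the controls (3.75-fold, edgeR adjusted p = 0.0327). Cfap52 had 23.8, 39.3 and 66.3 CPM in HI, against 15.0, 16.3 and 8.83 CPM in the controls (3.22-fold, edgeR adjusted p = 0.0445). In all 3 the groups were separate, with HI 3 highest and control 3 lowest. Spag8 rose 3.65-fold (edgeR adjusted p = 0.0398) with separate groups. Tekt2, another tektin, had 6.41, 4.75 and 12.8 CPM in HI, against 3.25, 1.69 and 1.12 CPM in the controls, and Tekt4 had 3.34, 2.44 and 6.72 CPM in HI, against 1.74, 0.956 and 0.224 CPM in the controls. Their groups were separate but neither passed (edgeR adjusted p = 0.0543 and 0.0869). Cfap20, which is also found outside motile cilia, had 45.3, 45.8 and 59.9 CPM in HI, against 40.4, 45.9 and 50.2 CPM in the controls, and a log2 fold change of 0.15 ± 0.15. Tekt5 was erratic, with 12, 19 and 22 reads in HI and 5, 0 and 21 reads in the controls.

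Symbols with other or uncertain places were mixed. Cfap36, which binds a small GTPase of the cilium, had 91.3, 93.9 and 103 CPM in HI, against 78.5, 80.3 and 83.3 CPM in the controls, a log2 fold change of 0.25 ± 0.09 with separate groups that did not pass (edgeR adjusted p = 0.0986). Cfap99 had 38.3, 20.8 and 57.7 CPM in HI, against 21.1, 13.2 and 8.68 CPM in the controls. Cfap97 was the member with every HI library below every control, at 15.0, 12.6 and 11.7 CPM in HI, against 18.2, 16.7 and 16.2 CPM in the controls (log2 fold change -0.38 ± 0.15, edgeR adjusted p = 0.130). The Spag prefix stands for sperm-associated antigen and gathers genes with unlike functions. Spag9, a scaffold of motor transport and JNK signalling, averaged 377 ± 51.9 CPM in HI and 445 ± 25.5 CPM in the controls (SD, n = 3 each). Spag5, a protein of the mitotic spindle, averaged 17.2 ± 1.63 CPM in HI and 15.5 ± 0.43 CPM in the controls, and Spag7 had a log2 fold change of 0.21 ± 0.12. Spag4, a nuclear envelope protein, had at most 12.8 estimated reads in a library and a log2 fold change of -0.62 ± 0.72. Of these 4, 0 passed by edgeR, DESeq2 or limma-voom, 0 had an unadjusted p below 0.05, and their groups overlapped. Spag11bl and Cfap58 had too few reads to be tested.

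**Figure D3:**
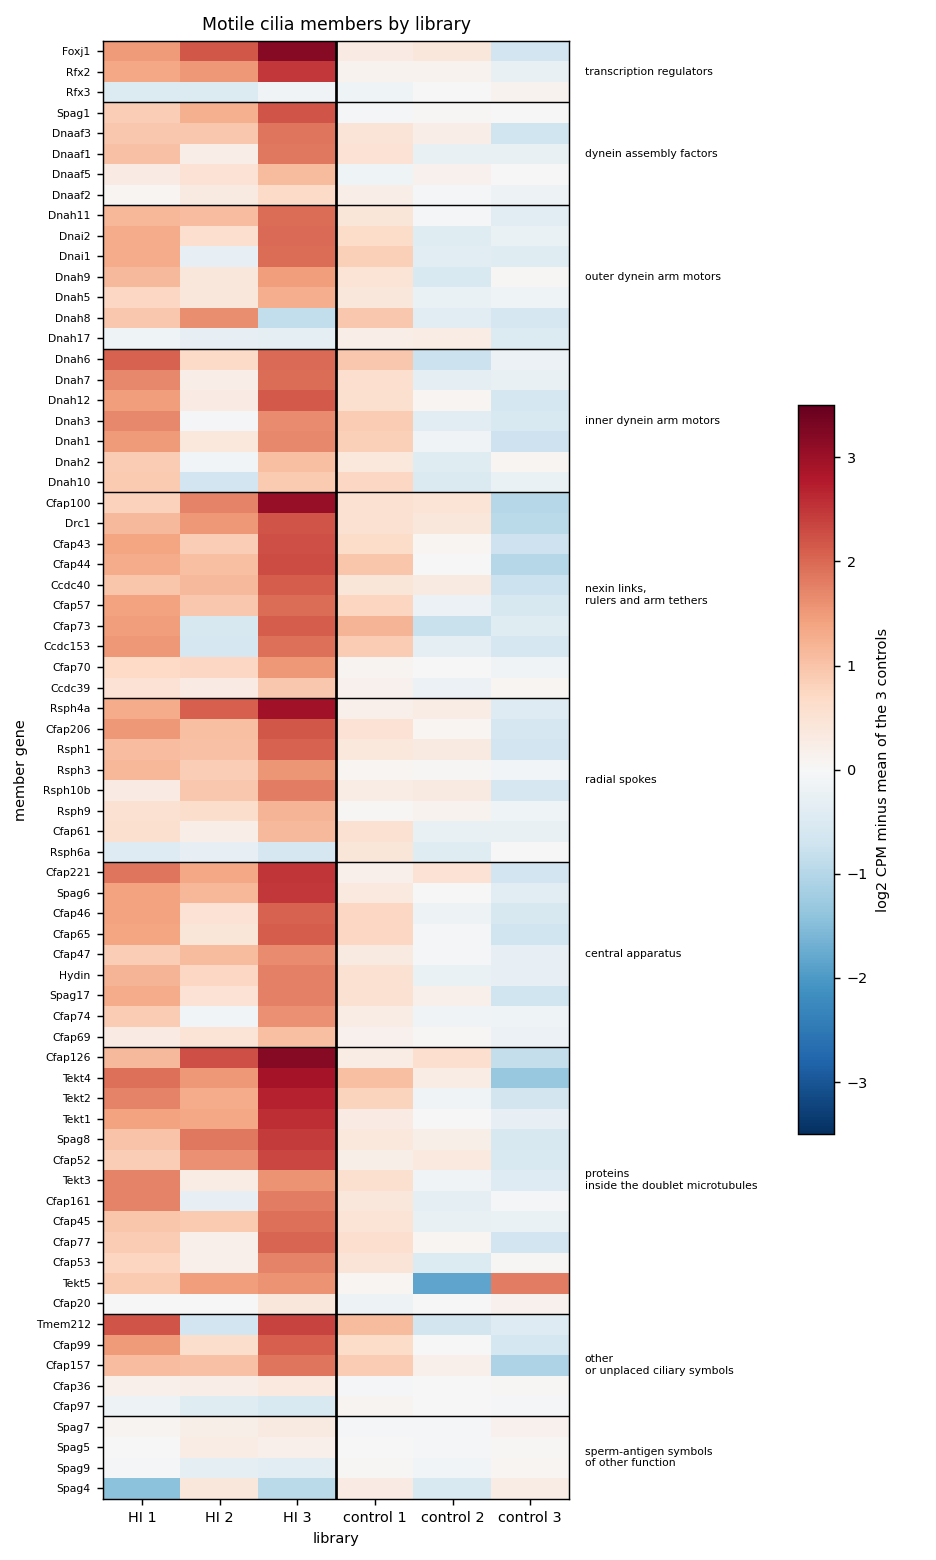
Log2 CPM of each of the 71 tested members minus its mean over the 3 controls (colour, red higher and blue lower), with a row per member, ordered by role and fold change, and a column per library, HI left of the black line and controls right. HI 3 is the reddest column, HI 2 is paler than HI 1 and HI 3 for the inner dynein arm motors, and control 3 is the bluest control; their medians are 1.87, 0.51 and -0.37.

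Libraries of a group were not alike. The member median of log2 CPM relative to the mean of the controls was 1.07, 0.51 and 1.87 in HI 1, 2 and 3, and 0.43, -0.03 and -0.37 in controls 1, 2 and 3, so HI 2 lay close to control 1. HI 3 was the highest HI library for 60 of 71 members, and for 42.0% of all genes tested. Control 1 was the highest control for 53 members, and for 29.2% of all genes tested. Control 3 was the lowest control for 45 members, and for 38.6% of all genes tested. Among libraries with Y-linked reads the medians were 0.51 and 1.87 in HI 2 and HI 3 and -0.37 in control 3, and among those without them 1.07 in HI 1 and 0.43 and -0.03 in controls 1 and 2. In each of these sets 1 side is a single library, and the part of sex in the members' values was not tested.

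Members differed in how HI 2 compared with HI 1. In 10 members HI 2 was higher by more than 0.5 on the log2 scale, among them Foxj1, Rsph4a, Rsph10b, Cfap126, Cfap52, Spag8 and Cfap100. In 24 it was lower by more than 0.5, among them all 7 inner arm heavy chains, the intermediate chains Dnai1 and Dnai2, and Dnah9. In 37 members the difference lay within this limit of 0.5, which was set after these values were seen. For all genes tested the shares were 14.5% higher and 8.43% lower, against 14.1% and 33.8% of members. The share of members that were higher was thus close to that of all genes. Tmem212 and Ccdc153, markers of mature ependymal cells named here after their values were seen, were at the far end. Tmem212 had 9.82, 1.22 and 11.02 CPM in HI, against 4.46, 1.25 and 1.42 CPM in the controls, and Ccdc153 had 20.4, 4.62 and 27.1 CPM in HI, against 13.1, 5.59 and 4.64 CPM in the controls. In each, HI 2 was just below the lowest control, while HI 1 and HI 3 were above all controls. Over the 37 members whose groups overlapped, 25 showed HI 1 and HI 3 above all controls, which leaves HI 2 as the library in which the groups met. The same share was not taken over all genes, so how usual this is in these libraries is not known.

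**Figure D4:**
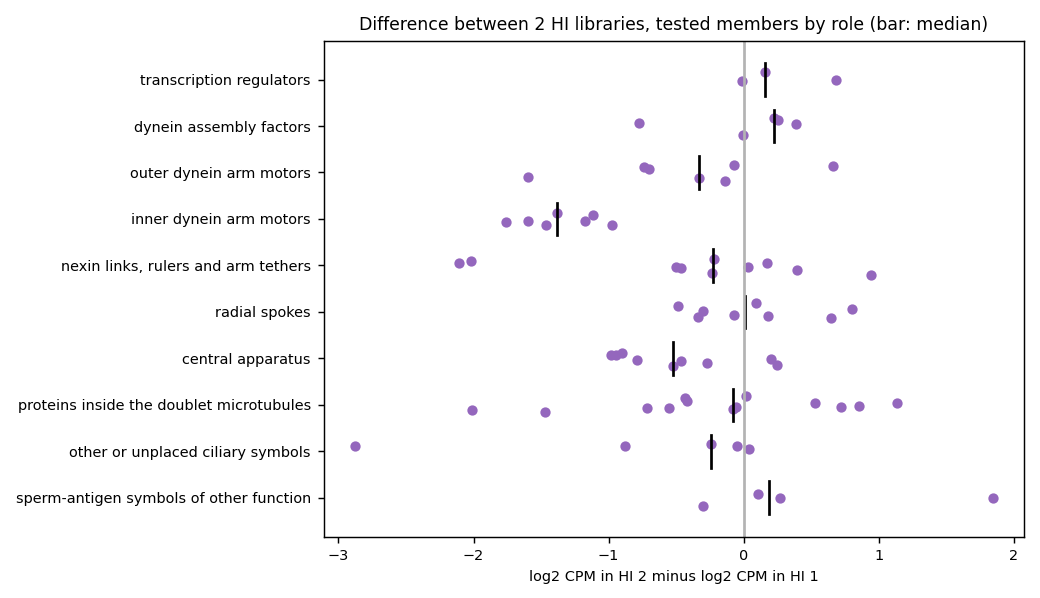
Log2 CPM in HI 2 minus log2 CPM in HI 1 (horizontal axis) for the 71 tested members, in rows by role, with a black bar at each role's median. The inner dynein arm motors lie wholly below 0 with a median of -1.38, dynein assembly factors centre at 0.22, and Tmem212 is the lowest point at -2.88.

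Choroid plexus RNA ordered the libraries differently from the member median. The median of 17 tested choroid plexus markers relative to the controls was 0.33, 4.48 and 5.05 in HI 1, 2 and 3, and -1.44, 2.90 and -1.46 in controls 1, 2 and 3. By edgeR 0 of the 17 passed (6.83% of all genes were called higher), with 4 higher at an unadjusted p below 0.05 (19.1% of all genes). DESeq2 called 2 higher (13.9% of all genes) and limma-voom 0 (3.69%). The groups overlapped in all 17, as in 8630 of all 14959 genes tested. HI 1 had less choroid plexus RNA than control 2 by the summed markers (249 against 2481 CPM), and 64 of 71 members were higher in HI 1 than in control 2, as were 51.4% of all genes tested. Control 2 exceeded control 1 for 14 of 71 members, a share that was not taken over all genes. Within HI, the summed choroid plexus markers increased from HI 1 to HI 2 to HI 3. Among members that rose by edgeR, Foxj1, Rfx2, Spag1, Cfap70, Cfap126, Cfap52, Rsph4a and Spag8 had that order as well. Tekt1, Rsph3, Spag6, Dnah11, Cfap206 and Cfap221 did not. Some members that did not pass, such as Drc1, Rsph9 and Rsph10b, had it too. The share of all genes with that order was not taken. HI 2 was the lowest HI library for 43 of 71 members, and for 19.7% of all genes tested. The part of choroid plexus RNA in the rise of single members was not tested. Gmnc, an initiator of multiciliation upstream of Mcidas, named here after its values were seen, had 0.802, 13.1 and 26.6 CPM in HI, against 0.681, 2.57 and 0.823 CPM in the controls, and was high in the 3 libraries with the most choroid plexus RNA.

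**Figure D5:**
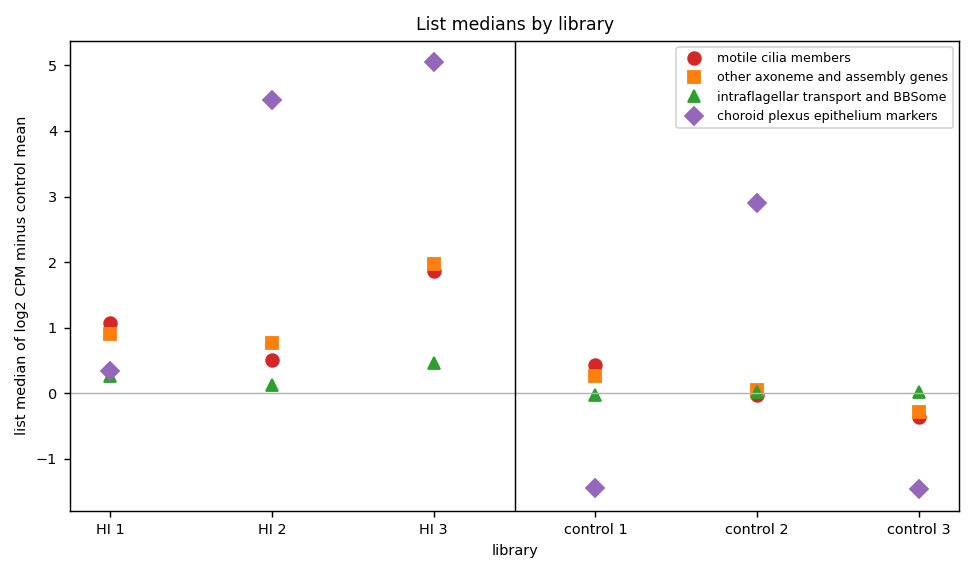
Median over each gene list of log2 CPM minus the control mean (vertical axis) in every library, HI left of the line and controls right. Motile cilia members and other axoneme genes run close together and peak in HI 3, intraflagellar transport genes stay between -0.02 and 0.46, and choroid plexus markers are high in HI 2, HI 3 and control 2.

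Axoneme and dynein assembly genes outside the symbol rule gave values near those of the members. Of 67 found, 62 were tested, 8 rose and 1 fell by edgeR (13.9% of all genes tested were called in either direction), with a median log2 fold change of 1.34. Catip, a ciliogenesis protein, had 11.96, 16.4 and 26.0 CPM in HI, against 4.62, 3.60 and 2.39 CPM in the controls (5.11-fold, edgeR adjusted p = 0.0233). Tppp3, a tubulin-binding protein of multiciliated cells, had 48.0, 29.3 and 44.6 CPM in HI, against 17.6, 17.4 and 12.4 CPM in the controls (2.57-fold, edgeR adjusted p = 0.0247). Wdr78, an intermediate chain of inner arms, had separate groups and a log2 fold change of 1.29 without passing (edgeR adjusted p = 0.0690), and Dzip1l, a transition zone protein, had -0.11 with groups that overlapped. Spef1, which bundles microtubules and is not confined to motile cilia, fell to 0.739 of the control level (edgeR adjusted p = 0.0391). Of 16 tested multiciliation regulators outside the rule 0 passed by edgeR in either direction, and 5 were higher at an unadjusted p below 0.05 (19.1% of all genes). DESeq2 called 3 higher (13.9% of all genes) and limma-voom 0 (3.69%). In 5 every HI library lay above every control (21.5% of all genes), and in 1, Trrap, every HI library lay below (20.8%). Tp73, a factor upstream of Foxj1, had 11.3, 12.2 and 21.0 CPM in HI, against 6.43, 6.69 and 2.24 CPM in the controls (edgeR adjusted p = 0.0667), with separate groups. Rfx4, an RFX factor of neural tissue, also had separate groups (1.995-fold, edgeR adjusted p = 0.0588). The broadly expressed Trrap, Rfx5 and Rfx7 had log2 fold changes of -0.29, 0.29 and -0.13 without passing.

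Intraflagellar transport and the BBSome serve primary and motile cilia alike. Of 41 such genes 4 rose and 1 fell by edgeR, with a median log2 fold change of 0.35. Over all genes tested 6.83% rose and 7.04% fell, and these shares also belong beside the other list counts of this paragraph. Ift81 and Ift52, of the transport train, rose 1.79-fold and 1.51-fold (edgeR adjusted p = 0.0293 and 0.0317). Kifap3, a subunit of the kinesin that drives the train and also works in axons, fell to 0.534 of the control level (edgeR adjusted p = 0.0318), while the motor subunits Kif3a and Kif3b of the same kinesin had log2 fold changes of -0.49 and -0.74 without passing (edgeR adjusted p = 0.119 and 0.0547). In the list of further ependyma markers 4 of 12 tested genes rose and 1 fell. It shares Dynlrb2, Tppp3, Ak7 and Spef2 with the axoneme and dynein assembly list above. Dynlrb2 (edgeR adjusted p = 0.0498) and Tppp3 are among the rises of both lists, so these counts overlap and are not independent. Pltp, a phospholipid transfer protein, and Tm4sf1 rose 3.38-fold and 4.44-fold, and Cd24, which immature neurons carry as well, fell to 0.302 of the control level (edgeR adjusted p = 0.0362, 0.0292 and 0.0392). Nnat, which neurons express too, did not pass, at a log2 fold change of 0.74. Astrocyte and microglia markers gave 2 of 8 and 5 of 7 rises and neuron markers 4 of 10 falls, and their summed levels were 3393 to 4963, 247 to 399 and 2270 to 4171 CPM in HI, against 1383 to 2200, 118 to 169 and 6075 to 6946 CPM in the controls. Oligodendrocyte lineage markers gave 2 of 8 falls. Among the astrocyte markers Gfap had 936, 1402 and 2304 CPM in HI, against 146, 143 and 136 CPM in the controls. Markers within a list did not all move alike. Slc1a2, Aldh1l1 and Aldoc had negative log2 fold changes and Gad1 and Gad2 positive ones, all without passing by edgeR. Such levels can differ with cell number or with RNA per cell. What these shifts in marker levels contribute to the members' values was not tested.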

How the data were processed

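Rat brain RNA was sequenced in 6 libraries, 3 HI and 3 control. Per the labels' protocols, TRIzol served for extraction and a SMARTER mRNA-Seq kit for library preparation. HISAT2 2.1.0, SAMtools 1.10, StringTie 2.2.1 and Rnor 6.0 are named per the submitters' processing notes. How reads were counted, and whether by strand, is not given in the sources used here. Estimated counts per gene were deposited unscaled, and 8.87% of entries were not whole to within 1e-09, so some reads appear to be shared between genes. Among members these are Dnaaf2, Cfap77, Cfap58, Rsph4a and Spag4. The column of control 1 lacks a letter in its name. Of 75 members with a RefSeq row (GRCr8), 17 overlap the span of another gene in the table. Besides Dnah11 they include Dnaaf1, Dnaaf2, Dnaaf5, Dnah12, Dnah17, Ccdc39, Cfap61, Cfap97, Cfap99, Spag4 and Spag7. Their reads could likewise be shared if strand was not used.

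Counts were rounded, filtered with filterByExpr (minimum count 10) and scaled by TMM, and HI was compared with control by the two-sided quasi-likelihood F test of edgeR 4.0.16 (R 4.3.3), group as the only term, with Benjamini-Hochberg adjustment over 14959 genes and a threshold of 0.05. The common biological coefficient of variation was 0.275. SE came from the F statistic. List medians per library use log2 CPM with a prior count of 2. The fit was tested on simulated data. Floors cover counting error only. No library pair was a duplicate (chi-square per degree of freedom 13.4 to 162).

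Members, gene lists and roles were chosen with earlier results of these data known. Named are the 4 regulators, the 3 members of each role with the highest mean CPM (a choice only, since CPM are not per length), every called member, the 3 largest and 3 smallest fold changes, 42 members in all, and from each pathway or ependyma list the 3 genes of highest mean CPM and the 2 of smallest p. Other members described were chosen after their values were seen. Marker lists of other cell types are given by counts and sums, with a few markers named after their values were seen. Alternatives were 3 other scalings, DESeq2 1.42.0, limma-voom (limma 3.58.1), 2 other filters, a block for the replicate number, and each library left out in turn.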

Additional observations from a re-analysis of the deposited data

How the results depend on the processing

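The count of members called by edgeR was 14, all higher in HI, with 2074 genes called in all. It was 27 with total counts, 39 with the DESeq2 Wald test (4200 genes in all) and 2 with limma-voom (1371 genes in all), and 10 to 18 with DESeq2 size factors, upper-quartile factors, no filter or 1 CPM in 3 libraries. Leaving out each library gave 0 to 20 members and 0 to 3689 genes in all. The cause of these changes was not tested. The median log2 fold change of members stayed between 0.92 and 1.58 over all these settings, and 0 named members changed sign. The median over all genes was 0.04, moved to 0.14 by upper-quartile factors and 0.23 by total counts, and those shifts apply to every member. With the replicate number as a block 3 members passed, 1 of them among the 14. Same-numbered libraries deviated from their group means with correlations of 0.24, 0.07 and -0.15, so the titles' numbers were not taken to pair samples. At this depth Mcidas, Spag16, Spag6l and Spag11bl could not be compared.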
